A study of Rattus norvegicus with 4 samples.

Results

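The genes described here encode the subunits of voltage-gated sodium and calcium channels in rat oligodendrocyte precursor cells (OPCs). They were chosen by symbol: Scn with a number and the letter a or b, or a symbol that starts with Cacna, Cacnb or Cacng. The arrays held probes for 37 such genes, 13 of sodium and 24 of calcium channels, out of 16568 genes with a named probe, and no probe could be matched to Scn7a, Cacna1d or Cacnb4. OPCs of pooled cerebral cortices of postnatal day 2 Sprague-Dawley rats had first proliferated for 3 days with PDGF and bFGF. On the switch to differentiating medium with T3 hormone, Gpr17 was silenced by transfection of a targeting siRNA pool at 50 nM (siGPR17), and control OPCs received a pool without a target (siNEG). RNA was taken 48 h later, at 2 days of maturation in vitro. Each condition has 2 independent samples, each on 1 one-colour Agilent array. The strain is that of the study's methods, and no engineered allele is named for either group.

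A voltage-gated channel opens when the membrane is depolarized and lets its ion flow into the cell. The large alpha subunit (Scn genes ending in a, Cacna1 genes) forms the pore and senses voltage. Smaller beta subunits (Scn genes ending in b), cytoplasmic beta subunits (Cacnb) and alpha2delta proteins (Cacna2d) set how many channels reach the surface and how they gate. The gamma family (Cacng) holds the gamma subunit of muscle calcium channels and the TARPs, which escort AMPA glutamate receptors. OPCs are known to carry voltage-gated sodium and calcium channels and to receive synapses from neurons, and these currents are known to shrink as the cells mature into oligodendrocytes.

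Signals below are normalized array intensities, scaled to the 75th percentile of each array and given in the order siNEG replicates 1 and 2, then siGPR17 replicates 1 and 2. They compare arrays for 1 probe and do not rank different genes. The probe of Gpr17, the silenced receptor, read 1107 and 1113 in siNEG and 652 and 639 in siGPR17. It was lower by 0.78 on the log2 scale (fold change of siNEG over siGPR17 1.72, SE 0.085). Its adjusted p in limma was 0.209, the smallest value of any tested gene, so that 0 of 11656 genes (0%) passed the thresholds of the study, a fold change of 1.5 with an adjusted p under 0.07. This count holds for the processing and test used here. The study itself reported a list of differentially expressed genes at these thresholds, by a test that its methods do not name. All 4 arrays lay on 1 slide in 1 scan, with siNEG in column 4 and siGPR17 in column 3, so that column and treatment cannot be told apart. Correlations between arrays lay between 0.992 and 0.996 across probes, the arrays detected 26997 to 28244 probes well above background, and 0 non-control spots were saturated. With 2 arrays against 2, an exact two-sided permutation test of a single gene cannot give a p under 0.333.

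Of the 37 channel genes, 28 entered the test, because a minimum of 2 arrays showed their probe well above background. None of these passed the filter through arrays of 1 group alone. The signal was lower in GPR17-silenced OPCs for 22 of the 28 and higher for 6, whereas 48% of all tested genes were lower and 52% higher. The median log2 fold change was -0.20 over the channel genes and 0.01 over all tested genes. None of the 28 passed the thresholds in limma, and adjusted p-values lay between 0.209 and 0.992. Without adjustment, 6 genes (21.4%) had a p under 0.05, beside 16.2% of all tested genes. Of these 6, Scn3a, Scn8a, Cacna1e, Cacna1g and Cacng3 were lower (17.9% of the 28, against 8.73% of all tested genes) and Scn3b was higher (3.57%, against 7.43%). Both siGPR17 arrays lay below both siNEG arrays for 16 genes (57.1%, background 25.3%) and above both for 4, Scn3b, Cacna1i, Cacng1 and Cacng7 (background 28.1%). The difference reached 1.5-fold for Scn3a, Cacna1g and Cacng3 (3 of 28, background 5.08%).

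**Figure D1:**
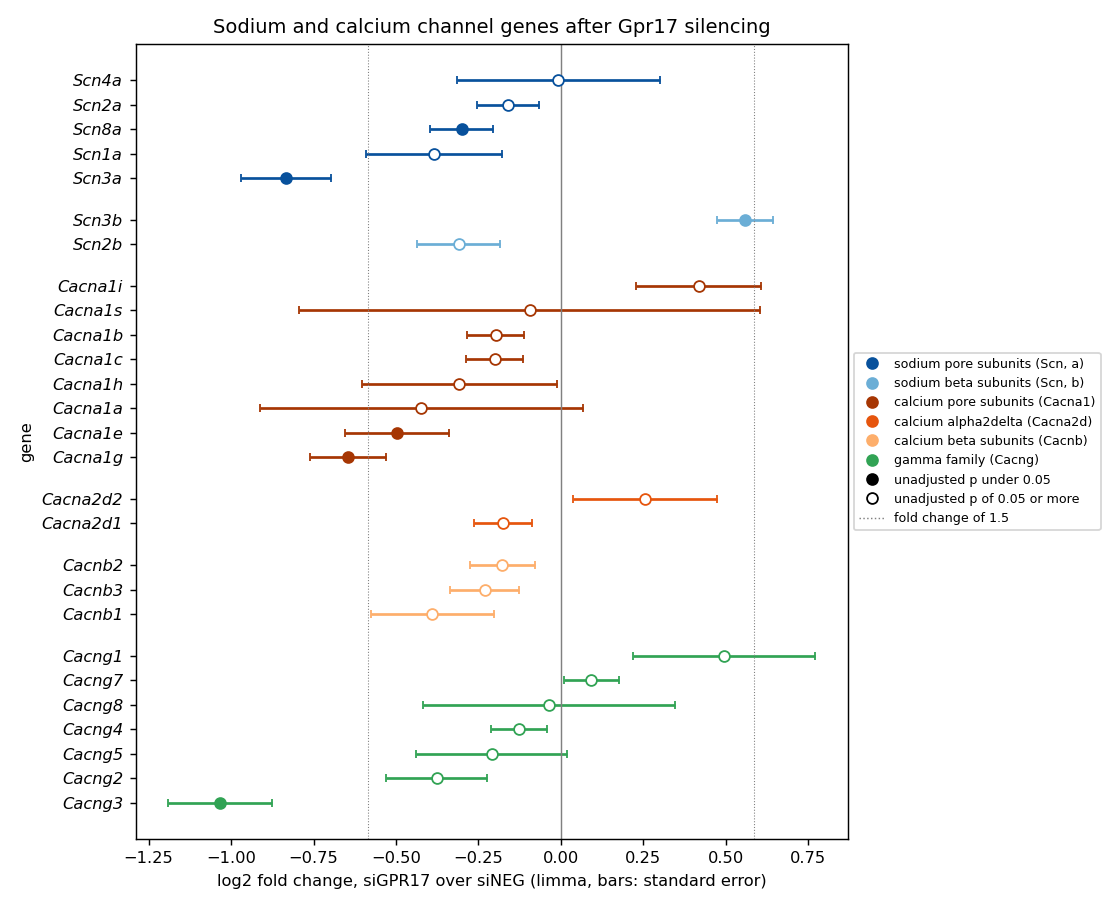
The log2 fold change of siGPR17 over siNEG (x axis) is shown for 27 of the 28 tested channel genes, grouped by subunit and coloured by group, with the standard error of limma from 2 arrays per condition. Filled points have an unadjusted p under 0.05, dotted lines mark a fold change of 1.5, and 22 points lie left of 0 and 5 right of it.

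The split was 22 lower and 6 higher under median scaling and 21 lower and 7 higher under quantile normalization. It moved more under spike-in scaling and without siNEG replicate 1. When arrays were scaled to 9 spike-in probes instead of the 75th percentile, the median of all tested genes moved up to 0.14, and 18 channel genes (64.3%) were lower and 10 higher, beside 27.1% of all genes lower. Their median was then -0.07, and 11 of the 28 had no overlap between the groups, a smaller share than the 62.6% of all tested genes. Without siNEG replicate 1, 17 were lower (60.7%) and 11 higher, beside 53.3% of all genes lower. Over 8 other settings (scalings, normexp background correction and left-out arrays), 19 genes kept their sign throughout, 14 of them lower and 5 higher. Spike-in scaling raised all genes together, and over the other 7 settings 20 genes kept their sign, 15 lower and 5 higher. Among the 9 that changed sign in at least 1 of all 8 settings were Scn2a, Scn4a, Cacna1a, Cacna1h, Cacna1s, Cacng4, Cacng5 and Cacng8. Cacng4 did so under spike-in scaling only.

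**Figure D2:**
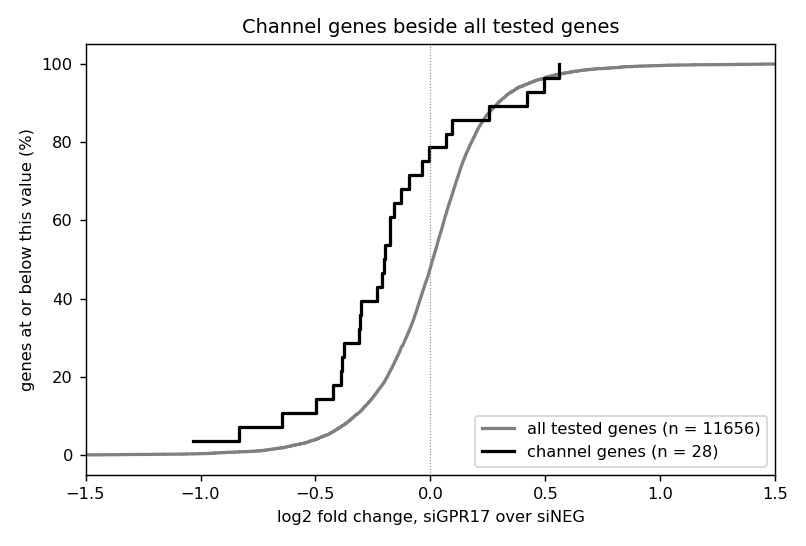
Cumulative share of genes (y axis, percent) at or below each log2 fold change of siGPR17 over siNEG (x axis), for the 28 channel genes in black and all 11656 tested genes in grey. At 0 the channel genes have reached 78.6% and all tested genes 48%.

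Among the sodium channel pore subunits, 5 of 9 genes were tested and all 5 were lower, with a median of -0.30 on the log2 scale, although Scn4a turned higher under quantile, spike-in and normexp processing and Scn2a under normexp. The clearest difference was that of Scn3a (NaV1.3), a channel of embryonic and newborn brain. Its brightest probe read 851 and 1026 in siNEG and 553 and 498 in siGPR17. Both silenced samples lay below both controls, by more than the gap between either pair of replicates. The means were 938.5 ± 123.9 and 525.2 ± 39.0 (SD, n = 2 each), a log2 difference of -0.83 (SE 0.14, limma adjusted p = 0.209). This brightest probe of Scn3a is named for a predicted transcript. A second probe, named for a curated transcript, read 327, 285, 224 and 199, a log2 difference of -0.53, in the same direction. Its fold change of siNEG over siGPR17 was 1.45, under 1.5. The thresholds were judged on the brightest probe only. Scn3a was the one channel gene that passed both thresholds in an alternative fit, with an adjusted p of 0.0239 under the trend and robust options of eBayes in limma (1.58% of all tested genes passed) and of 0.0369 after normexp background correction (0.961% passed).

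Scn8a (NaV1.6), the main sodium channel of mature nodes of Ranvier, was lower by a smaller step. Its signals were 249.6, 229, 197 and 191, without overlap between the groups (log2 difference -0.30, SE 0.096, limma adjusted p = 0.270), and its second probe differed by -0.23. Scn1a (NaV1.1), a channel of inhibitory neurons and of the axon initial segment, read 84.9, 71.7, 70.7 and 50.6. Its groups did not overlap, but the lower control and the higher silenced sample were nearly level (-0.38, SE 0.21). Scn2a (NaV1.2), found on unmyelinated axons, gave no settled direction. Its brighter probe read 115, 109.6, 104 and 97.5 (-0.16, SE 0.093) and its other probe 96.9, 92.4, 104 and 109 (0.17), so that the 2 probes went opposite ways. Scn2a was the exception among the 8 channel genes with several tested probes, since the other 7 had the same direction in all of them. Scn4a, the channel of skeletal muscle, was near background and level (-0.01, SE 0.31).

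Of the sodium channel beta subunits, Scn3b and Scn2b differed in opposite directions. Scn3b, whose product modulates the gating and surface level of the pore subunits, read 1873 and 1840 in siNEG and 2700 and 2768 in siGPR17. The groups were far apart and the replicates close, with means of 1857 ± 23.4 and 2734 ± 48.3 (SD, n = 2 each). The fold change of siGPR17 over siNEG was 1.47, just under 1.5 (log2 difference 0.56, SE 0.085, limma adjusted p = 0.209). Its adjusted p was 0.0234 with the trend and robust options and 0.0414 after normexp, where the fold change also stayed under 1.5. Scn2b, a beta subunit that binds the pore subunit by a disulfide bond, went the other way, with 1748, 2100, 1557 and 1533 (-0.31, SE 0.12, limma adjusted p = 0.323). This probe of Scn2b is named for a predicted transcript. The probe of its curated transcript was near background and not tested, with 18.7, 19.5, 14.8 and 21.1 and overlapping groups (-0.11).

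**Figure D3:**
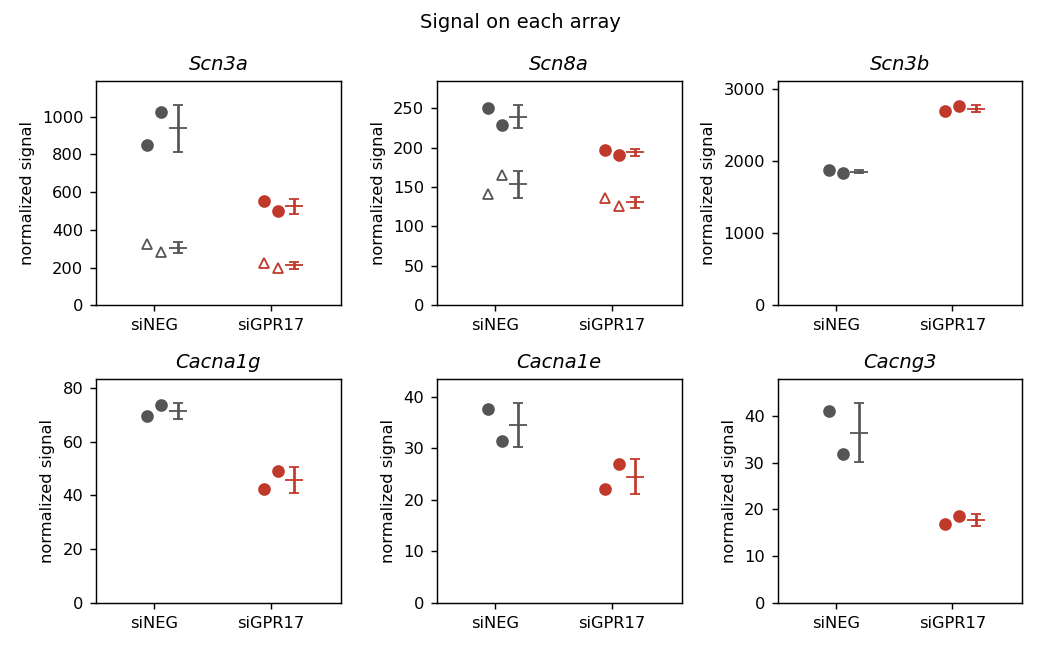
Normalized signal on each of the 4 arrays (y axis, linear scale from 0) for the 6 channel genes with an unadjusted limma p under 0.05, siNEG in grey and siGPR17 in red, with the mean and SD of the 2 replicates beside the points. Filled circles are the brightest probe and open triangles a second tested probe, and the groups do not overlap for any probe drawn.

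Among the calcium channel pore subunits, 8 of 9 genes were tested, 7 lower and 1 higher, with a median log2 fold change of -0.25. Those of the low-voltage-activated T-type channels, which open near the resting potential, did not move together. Cacna1g (CaV3.1) read 69.4, 73.6, 42.4 and 49.2, with both silenced samples well below both controls. The fold change of siNEG over siGPR17 was 1.56 (log2 difference -0.65, SE 0.12, limma adjusted p = 0.209). After normexp, which shrinks dim signals, the difference of Cacna1g was -0.23. Cacna1i (CaV3.3) was higher, with 608, 433, 687.5 and 683.5 (0.42, SE 0.19, limma adjusted p = 0.357), and its second probe had 554, 401, 633 and 673 (0.47). The silenced samples of Cacna1i were nearly equal, while the controls were further apart than the step from the higher control to the silenced samples. Cacna1h (CaV3.2) had 380.5 in siNEG replicate 1 and 219, 247 and 220.1 on the other arrays (-0.31, SE 0.29), a difference that turned to 0.09 without that replicate.

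The brightest probe of each tested high-voltage-activated pore was lower, with log2 differences between -0.50 and -0.10. The directions of Cacna1a and Cacna1s did not hold in every setting. Cacna1e (CaV2.3, R-type current) read 37.6, 31.5, 22.1 and 26.9, with no overlap (-0.50, SE 0.16, limma adjusted p = 0.268), and after normexp the difference was -0.12. Cacna1c (CaV1.2, L-type current) read 293, 301, 253 and 264 (-0.20, SE 0.087, limma adjusted p = 0.345). A dimmer probe of Cacna1c read 39.7, 38.8, 23.6 and 28.2, a larger difference of -0.60. Both probes of Cacna1c were lower on both silenced arrays, by unequal amounts. Cacna1b (CaV2.2, the N-type channel of presynaptic terminals) read 499, 514, 449 and 435 (-0.20, SE 0.087). Cacna1a (CaV2.1, P/Q-type) was not measured closely enough for a direction, since it read 44.4 in siNEG replicate 1 and 17.9, 24.6 and 17.9 on the others (-0.42, SE 0.49). Its difference was 0.23 without that array. Cacna1s, the channel of skeletal muscle, was above background on 1 array of each group and overlapped widely (-0.10, SE 0.70).

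The 3 Cacnb genes on the arrays, whose products bind the pore from the cytoplasm and carry it to the membrane, were all lower without overlap, and stayed lower in each of the same 8 settings. Cacnb1 read 684, 948, 628.5 and 601 (-0.39, SE 0.19, limma adjusted p = 0.373), with siNEG replicate 2 far above the other arrays. Its other tested probes read 317, 358, 271 and 271 (-0.31) and 274, 426, 248.7 and 266 (-0.41). Cacnb2 and Cacnb3 differed by -0.18 (SE 0.098) and -0.23 (SE 0.105). None of the 3 had an unadjusted p under 0.05 for its brightest probe. Of the alpha2delta genes, Cacna2d1, the binding site of gabapentin drugs, read 4496, 4720, 4107 and 4057 (-0.17, SE 0.088), a fold change of siNEG over siGPR17 of 1.13 without overlap. Cacna2d2 read 35.5, 26.8, 42.4 and 31.9, with overlapping groups (0.25, SE 0.22).

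In the gamma family, 7 of 8 genes were tested, 5 lower and 2 higher, with a median log2 fold change of -0.13 that was 0.00 under spike-in scaling and 0.09 without siNEG replicate 1. Cacng3, a TARP that escorts AMPA receptors, had the largest difference of all 28 genes. Its probe read 40.9, 31.9, 16.8 and 18.6, means of 36.4 ± 6.37 and 17.7 ± 1.24 (SD, n = 2 each). The log2 difference was -1.03 (SE 0.16, fold change of siNEG over siGPR17 2.05, limma adjusted p = 0.209). These signals are close to background, since 1 of the 2 silenced arrays was not well above it, and after normexp the difference was only -0.17. The other TARPs showed smaller steps. Cacng2 (stargazin, the founding TARP) read 259.9, 219.7, 167 and 202 (-0.38, SE 0.15, limma adjusted p = 0.325), without overlap. Cacng4, the TARP gamma-4, read 489, 497, 457 and 446 (-0.13, SE 0.085) and reached 0.00 under spike-in scaling, which raised all genes alike. Cacng5 (TARP gamma-5) read 54.9, 36.4, 36.6 and 40.8, overlapping (-0.21, SE 0.23). Cacng7 (TARP gamma-7) was slightly higher on both silenced arrays, 178 and 175 against 188 and 188 (0.09, SE 0.084), and Cacng8 (TARP gamma-8) overlapped fully (-0.04, SE 0.38). Cacng1, the gamma subunit of the muscle channel, read 28.7, 27.5, 30.5 and 51.4 (0.50, SE 0.28), so that siGPR17 replicate 2 alone stood far above the rest.

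The 9 channel genes left out of the test were dim on at least 3 of the 4 arrays. Scn9a (NaV1.7, a channel of pain-sensing neurons) read 36.0, 16.5, 16.9 and 14.1 and was well above background on siNEG replicate 1 alone. On siNEG replicate 2 it was dim and lay between the silenced samples, so that no fold change is given. Cacna2d3 was likewise well above background on 1 siNEG array only, with 18.9, 5.72, 3.77 and 14.6. The other 7, among them Scn10a and Scn11a (channels of sensory neurons), Scn4b, Cacna1f (the channel of photoreceptors), Cacna2d4 and Cacng6, were not well above background on any array.

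The sequence upstream of the start site is shown for the 4 genes with an unadjusted p under 0.05 that have one in the reference table, all of them lower, to show how unlike their promoters are. Each run gives the 250 bases before the annotated start in the direction of the gene, from the RefSeq table of the assembly GRCr8, with matched motifs in capitals. The table held such a window for 18 of the 28 tested genes, and not for Scn3b or Cacna1g. Scn3a (chr3:70666199-70666448, minus strand) has 41.6% G and C, 4 CpG dinucleotides and none of the motifs searched. Scn8a (chr7:133860977-133861226, plus strand) has 86.0% G and C, 53 CpG and 6 copies of GGGCGG, the GC box bound by SP1 factors. Cacna1e (chr13:69444811-69445060, minus strand) has 51.2% G and C, 6 CpG and none of the motifs. Cacng3 (chr1:186632312-186632561, plus strand) holds 2 copies of TTCAGCACC, the left part of the RE1 element that the neuronal repressor REST binds, and 1 GC box on the other strand.
Scn3a: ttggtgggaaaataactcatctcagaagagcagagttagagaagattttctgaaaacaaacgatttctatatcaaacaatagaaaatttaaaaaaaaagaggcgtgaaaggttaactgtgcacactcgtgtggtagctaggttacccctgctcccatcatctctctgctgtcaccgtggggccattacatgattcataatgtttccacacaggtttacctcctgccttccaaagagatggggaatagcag
Scn8a: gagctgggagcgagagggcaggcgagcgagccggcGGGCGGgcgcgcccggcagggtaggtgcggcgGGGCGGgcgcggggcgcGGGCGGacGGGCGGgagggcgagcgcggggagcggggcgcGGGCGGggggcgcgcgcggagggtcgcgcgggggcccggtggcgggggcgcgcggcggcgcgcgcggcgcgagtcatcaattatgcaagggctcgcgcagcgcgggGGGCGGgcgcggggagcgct
Cacna1e: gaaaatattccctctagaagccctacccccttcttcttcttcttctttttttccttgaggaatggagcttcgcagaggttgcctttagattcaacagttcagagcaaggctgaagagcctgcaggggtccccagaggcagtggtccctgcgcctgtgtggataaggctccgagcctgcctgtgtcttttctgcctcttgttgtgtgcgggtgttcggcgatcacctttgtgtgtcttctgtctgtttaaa
Cacng3: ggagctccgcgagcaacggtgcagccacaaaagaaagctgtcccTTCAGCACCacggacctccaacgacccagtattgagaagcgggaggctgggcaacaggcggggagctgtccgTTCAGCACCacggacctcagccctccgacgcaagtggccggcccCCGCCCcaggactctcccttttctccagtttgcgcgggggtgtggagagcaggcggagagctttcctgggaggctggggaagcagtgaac

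The motifs were searched on both strands, and no 2 of them share letters within these 4 windows. TTCAGCACC stood in 1 of the 18 channel genes, Cacng3, and in 0.305% of the 33465 promoter windows of this length. GGGCGG stood in 8 of the 18 (44.4%) and in 30.5% of all windows, TATAAA in 2 (all windows 12.9%), CCAAT in 3 (34.0%), and CACGTG (5.59%) and TGACGTCA (1.59%) in none of the 18. A channel gene was counted if any of its windows held the motif, whereas the shares over all are of single windows. The median G and C content was 64.8% over the 21 windows of the 18 channel genes and 51.2% over all windows. A match describes the letters only, and no binding was measured here.

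Of 57 listed genes that handle sodium and calcium beside these channels, 47 had a matched probe and 40 were tested. Of the 40, 15 were higher and 25 lower (62.5%, beside 48.0% of all tested genes), with a median log2 fold change of -0.09. Under spike-in scaling 23 were higher and 17 lower (42.5%, beside 27.1% of all tested genes). An unadjusted p under 0.05 was found for 14 (35.0%, background 16.2%), 6 higher (background 7.43%) and 8 lower (background 8.73%), and 0 passed the thresholds in limma. The 6 include Atp2a3, Orai2 and Rem2, which entered the test through the siGPR17 arrays alone, and over the other 37 genes the count was 11, with 3 higher and 8 lower. Atp2b2, a plasma membrane pump that exports calcium, read 288, 345, 176.5 and 174 (-0.84, SE 0.12, limma adjusted p = 0.209). Slc24a3, an exchanger that trades calcium and potassium for sodium, read 2373, 2598, 1580 and 1474 (-0.70, SE 0.10, limma adjusted p = 0.209). Both were lower without overlap, and both passed the thresholds with the trend and robust options (adjusted p = 0.0287 and 0.0203) and after normexp (0.0441 and 0.0228).

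Of 12 genes of calcium stores and store-operated entry with a probe, 10 were tested, 6 higher and 4 lower. An unadjusted limma p under 0.05 was found for 3 of the 10 (Atp2a3, Orai2 and Stim2), beside 16.2% of all tested genes. Atp2a3 and Orai2, both higher, entered the test through the siGPR17 arrays alone, which leaves Stim2 as the only other. Stim2, a calcium sensor of the endoplasmic reticulum that was named after its values were seen, read 6734, 7107, 5323 and 4862 and was lower without overlap (-0.44, SE 0.099, limma adjusted p = 0.216). The other 7 lay between -0.24 and 0.14 on the log2 scale. Atp2a3, a pump of the endoplasmic reticulum, read 12.1 and 10.2 in siNEG, not well above background, and 24.0 and 22.9 in siGPR17, a value at least 2.10-fold higher. Orai2, a pore of store-operated calcium entry, was likewise at least 1.73-fold higher (14.0 and 15.8 against 22.6 and 29.5), and Rem2, a small GTPase that inhibits calcium channels, at least 1.95-fold (15.3 and 10.9 against 23.9 and 26.6). For these 3 the bound is the fitted change rounded down, because the dim probe's own signal was the higher on each siNEG array. The bounds hold for the reported processing only. After normexp, which shrinks dim signals, the log2 differences of Atp2a3, Orai2 and Rem2 were 0.32, 0.20 and 0.25, all smaller than these bounds. Fgf13, an intracellular factor that binds the tail of sodium channels, was picked after its values were seen because it lay just under a 1.5-fold change, with 279.8, 276, 413 and 419 (0.58, SE 0.084, limma adjusted p = 0.209). It was higher without overlap on both silenced arrays, as was Scn3b.

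Markers of several cell types were detected, and some differed between the groups in the same direction as most channel genes. All 11 neuronal markers were tested and well above background on all 4 arrays. Of these, 10 were lower and 1 higher, with a median log2 fold change of -0.21. That is close to the -0.20 of the channel genes, as are the medians of the astrocyte, microglial and cell cycle markers given below. Their summed signal was 19780 and 20910 in siNEG and 18040 and 17310 in siGPR17, and Dcx, a microtubule protein of migrating neurons also found in OPCs, read 8509, 8259, 6548 and 6148. All 5 tested OPC markers were lower (median -0.36; sums 72860 and 75250 against 58970 and 56750), with Lhfpl3 unmatched. Of 8 tested oligodendrocyte markers, 3 were higher and 5 lower (median -0.12; sums 351400 and 395300 against 408400 and 423400), with Ermn not above background. Mbp alone carried the higher sum, since without it the sums were 154300 and 167600 against 151900 and 150500, and Mog differed most among the 8 (-0.67). The labels name the cells OPCs and oligodendrocytes, and the OPC markers Pdgfra and Cspg4 and the oligodendrocyte markers Mbp, Mag and Sox10 were well above background on all arrays. In these bulk samples, fewer cells of a type and less RNA per cell cannot be told apart, and the part of the markers in the differences of the channel genes was not tested.

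Markers of other cell types gave mixed values. Of 7 astrocyte markers 2 were higher and 5 lower (median -0.22), among them Aqp4 with 161, 169, 72.9 and 57.1. An unadjusted limma p under 0.05 was found for 3 of the 7, all lower (42.9%, beside 8.73% of all tested genes). The sums were 115100 and 129800 against 117400 and 118600. Aldoc alone made up most of these sums, with 107500, 121600, 111300 and 112600. All 6 tested microglial markers were lower (median -0.19; sums 3286 and 1796 against 1893 and 2406), with Csf1r not above background, but without siNEG replicate 1 they were 3 higher and 3 lower (median 0.04). Cx3cr1 alone made up most of the microglial sums, with 2512, 1241, 1338 and 1884. The 4 tested endothelial and mural markers were higher (median 0.38; sums 1027 and 867 against 1347 and 1249), while the defining Cldn5, Pecam1, Pdgfrb and Rgs5 were not well above background on any array. Vwf alone made up most of the endothelial and mural sums, with 869, 738, 1165 and 1071. All 4 tested cell cycle markers were lower (median -0.23; sums 20670 and 17880 against 16820 and 18570), with Top2a unmatched, and without siNEG replicate 1 they were 2 higher and 2 lower (median -0.03).

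**Figure D4:**
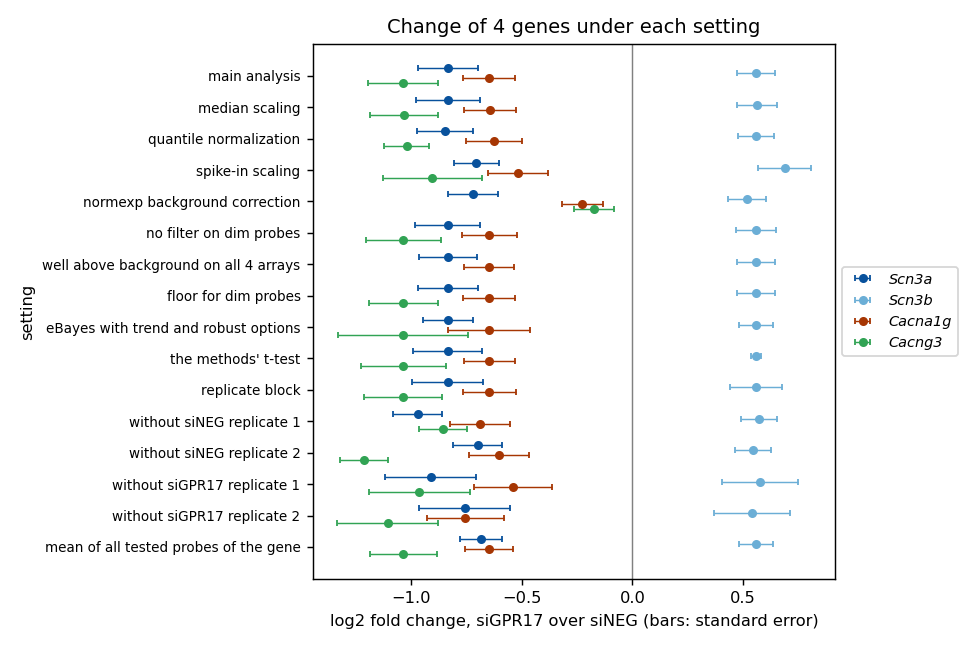
Log2 fold change of siGPR17 over siNEG (x axis) with its standard error for Scn3a, Scn3b, Cacna1g and Cacng3 under the reported processing and each of 15 alternatives (y axis). Scn3a, Cacna1g and Cacng3 stay left of 0 and Scn3b right of it wherever a value was computed, with the differences of Cacna1g and Cacng3 smallest after normexp (-0.23 and -0.17).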

How the data were processed

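RNA of 2 siNEG and 2 siGPR17 samples was measured on one-colour arrays, 1 sample each, and grouped by the sample labels. The authors deposited intensity values per spot from Agilent Feature Extraction 10.7.3.1, background-corrected by that software and not normalized between arrays. Here control and outlier spots were left out, spots of a probe averaged, and log2 intensities taken minus the array's 75th percentile; printed signals are these values times 599.6, a factor common to all arrays. The test covered 28016 of the 45565 probes measured on every array, those well above background on 2 or more of the 4. It was limma 3.58.1 (lmFit and eBayes, R 4.3.3), without a block, with Benjamini-Hochberg adjustment over all of them. The methods name no test where they describe the arrays, and the t-test of their general statistics was run as an alternative. The code was tested on simulated data.

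Accessions were matched without versions to a RefSeq table of GRCr8, which named 21093 probes. The brightest tested probe stood for a gene. Values per array are given for genes with an unadjusted p under 0.05, the largest difference in each subunit group and a list of well-known channels; other members were added for completeness, and a few single-gene results are not reported here, though counts include them. Partner genes were named at an unadjusted p under 0.05 and a fold of 1.5. The members and lists were chosen with earlier results of these data known. Where a probe was dim on a whole group and measured on both arrays of the other, a bound replaced the fold change. The 15 alternatives covered scaling (median, quantile, 9 spike-in probes), normexp (offset 50, on spot medians), filters, a floor, eBayes options, the methods' t-test, a replicate block, each array left out and the mean over probes. The number of arrays limits the precision.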

Additional observations from a re-analysis of the deposited data

How the results depend on the processing

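All 15 alternatives were run. The count of channel genes past the thresholds was 1 (Scn3a) after normexp and 1 with the trend and robust options of eBayes, and 0 in the other 13, with each array left out among them (0 to 0). An unadjusted p under 0.05 was held by 10 channel genes with the trend and robust options (beside 20.8% of all genes), by 10 with the methods' t-test (14.4%), and by 5 to 9 when an array was left out (5, 6, 8 and 9 beside 6.07%, 6.58%, 22.9% and 16.9%, without siGPR17 replicates 2 and 1 and siNEG replicates 1 and 2). The median log2 fold change moved to -0.0695 with spike-in scaling and -0.1176 after normexp, and lay between -0.2252 and -0.1747 without single arrays. The count of genes without overlap was 20 of 28 in the reported processing (71.4%, beside 53.4% of all genes). With spike-in scaling it was 11 of 28, a smaller share than the 62.6% of all genes. It was 21 to 26 with an array left out (beside 68.5% to 84.7%), where fewer arrays have to be apart. Gpr17 passed the thresholds after normexp (-0.661) and with the trend and robust options (-0.7815), with -0.796 to -0.7671 across left-out arrays. Directions reversed for Cacng4 with spike-in scaling (0.0027, where the median of all genes also moved, from 0.0099 to 0.1396), for Scn2a after normexp (0.1251) and over the mean of its probes (0.0039), and for Cacna1a, Cacna1h and Cacng5 without siNEG replicate 1 (0.2328, 0.0909 and 0.0877, against -1.0791, -0.7059 and -0.5073 without siNEG replicate 2). Beyond the arrays left out, the causes were not tested. With the replicate number as a block, 4 channel genes had an unadjusted p under 0.05 (beside 11.0% of all genes), 0 passed the thresholds, and the adjusted p of Gpr17 was 0.3901. The reported fit has no block because the methods state none. Across the tested probes, the deviations of replicate 1 from its group mean correlated at -0.0652 between siNEG and siGPR17.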
